A study of Homo sapiens with 96 samples.

Results

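The ATF4 amino acid stress response genes are a set of 31 genes, listed by gene symbol. They comprise ATF4 itself, 7 other transcription factors and stress regulators, and the enzymes, amino acid transporters, tRNA synthetases, translation factors and secreted or surface proteins usually counted among the targets of ATF4. The list was chosen with earlier results of these data known, so counts of members below are not those of a set picked blind to the data. All 31 were measured, among 11940 genes named on the array.

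ATF4 is a basic leucine zipper transcription factor. When a cell runs short of amino acids, or its endoplasmic reticulum is overloaded, stress kinases phosphorylate the translation initiation factor eIF2, and general translation slows while the ATF4 message is translated more. ATF4 then pairs with C/EBP family proteins on composite sites and raises genes that make, import and charge amino acids, together with the regulators DDIT3 (CHOP) and TRIB3 that act later in the response. ATF4 activity is therefore set largely at translation, and its mRNA is only part of its control.

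RNA came from cultured MDA-MB-231 cells, an established human breast cancer line, hybridised to 96 Affymetrix arrays, 32 in each of 3 series. Array titles name the series 2D03 and 2D04 (flat culture) and 3D04 (3D culture, with no matrix described). In all groups, per the labels, cells at 80% confluence were held in low serum for 24 h before 0 h. Control arrays received no EGF; the EGF arm received 10 ng/ml EGF at 0 h; the DMSO-EGF and U0126 arms were pre-treated for 30 min with DMSO or 10 uM U0126, an inhibitor of the kinases MEK1/2 upstream of ERK, and then also received EGF. At 0 h each series held 2 control arrays, 1 array with DMSO and 1 with U0126, both without EGF. At 0.5, 1, 4, 8, 12, 24 and 48 h it held 1 array of each of the 4 arms, so each series had 9 control arrays. The 3D culture was a single series, so culture and series cannot be told apart there, and the labels do not say whether repeats were separate cultures, so p-values measure the spread between these samples.

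All values are on the deposited scale, presumed log2 and centred on an unknown reference for each probe set; neither the log base nor the centring is stated. A value of 0 is therefore no level, only differences between arrays of 1 gene can be read, and fold changes assume log2. For the same reason the identity of the cells could not be checked from absolute marker levels. In bulk RNA, a lower level in every cell and fewer cells carrying a transcript cannot be told apart. Late in both cultures U0126 lowered the ERK output genes: EGR1, an immediate early factor, by a difference of -3.31 in 2D and -4.26 in 3D, and the feedback phosphatase DUSP6 by -2.60 and -2.40 (limma, all called). Of 6 leukocyte and 8 fibroblast markers measured, 0 differed between the control arrays of 3D04 and 2D04, with differences from -0.06 to 0.08 and from -0.12 to 0.13. A pair of arrays stood apart in RNA quality: the signal of the 5′ minus the 3′ actin control was -1.26 and -1.08 on the 8 h and 12 h U0126 arrays of 2D03, against -0.36 to 0.31 on the other 94 arrays.

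ATF4 with a C/EBP partner binds composite elements whose core can be written TGATGNAA, so the promoter windows of the members were searched for these letters on both strands, from 250 bases before to 50 bases after each annotated start (RefSeq, GRCh38.p14). Of the 31 members, 26 had a window, and 10 of these genes (38.5%) held the motif, against 331 of 9593 genes of the array with a window (3.45%). Over windows, the motif stood in 10 of 44 members' windows (22.7%) and in 348 of 14136 windows of genes of the array (2.46%). Over all windows, also those of genes not on the array, it stood in 1270 of 35116 (3.62%). Of the 10 members with the motif, the 6 printed had the smallest adjusted p in the comparisons of series or of U0126. Members without a match were not ranked. Capitals mark the motif, and TTNCATCA is the same motif on the opposite strand.
SLC1A5 (chr19:46784883-46784932, minus strand): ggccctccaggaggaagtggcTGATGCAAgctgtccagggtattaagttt
SLC1A4 (chr2:64989371-64989420, plus strand): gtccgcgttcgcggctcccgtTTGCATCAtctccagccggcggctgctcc
CEBPG (chr19:33374050-33374099, plus strand): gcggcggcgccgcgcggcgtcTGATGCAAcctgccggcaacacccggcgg
SLC3A2 (chr11:62881725-62881748, plus strand): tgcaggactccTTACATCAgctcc
ASNS (chr7:97872409-97872658, minus strand): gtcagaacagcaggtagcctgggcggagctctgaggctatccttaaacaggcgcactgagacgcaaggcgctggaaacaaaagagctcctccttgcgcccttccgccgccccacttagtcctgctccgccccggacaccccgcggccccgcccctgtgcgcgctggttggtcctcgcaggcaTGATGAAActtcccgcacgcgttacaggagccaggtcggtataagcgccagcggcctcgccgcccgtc
GARS1 (chr7:30594824-30594873, plus strand): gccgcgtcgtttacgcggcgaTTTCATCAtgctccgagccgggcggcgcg
All 6 stretches read 5′ to 3′ on the strand of the gene, and lie at or just before the annotated transcription start, except that SLC1A4's runs past it and SLC3A2's lies within the transcript. The motif begins 97 bases before the start in SLC1A5, 7 before in SLC1A4, 42 before in CEBPG, 68 before in ASNS and 33 before in GARS1, and 37 bases after the start in SLC3A2. It lies on the strand of the gene in SLC1A5, CEBPG and ASNS, and on the other strand in SLC1A4, SLC3A2 and GARS1. CARS1, ATF3, CHAC1 and AARS1 were the other members with a match. The members are ATF4 and genes usually counted among its targets, and the motif is a site of ATF4. The higher share among them is therefore no result of these data. A match describes the letters of the window and is no evidence of binding in these cells.

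The control arrays answer how the genes stood in untreated cells of the 3 series. By the means over the control arrays, 30 of the 31 members were highest in 2D03, lower in 2D04 and lowest in 3D04. The same order of means held for 3910 of the 11940 genes (32.7%). Between 3D04 and 2D04, 30 of the 31 members were lower in 3D04 and 0 were higher (limma, adjusted p under 0.05 over all genes), where 15.7% of all genes were lower and 31.5% differed either way. The median difference of the members was -1.38, against -0.01 over all genes. Each fit included a term for time and gave 1 difference over the whole course. The gap between 3D04 and 2D04 was not equal at all times. The member median of the control array at 24 h was 0.26 in 2D04 and -0.99 in 3D04. At 48 h it was -0.44 in 2D04 and -0.55 in 3D04, so the gap had nearly closed.

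The regulators themselves were among them. ATF4 lay at 0.78 to 1.12 (median 1.01) on the control arrays of 2D03, 0.06 to 0.66 (median 0.56) on those of 2D04 and -0.38 to 0.07 (median -0.26) on those of 3D04. The 2D03 arrays all stood above the 2D04 arrays, and the 3D04 and 2D04 ranges met at their edges. ATF4 mRNA was 1.66-fold lower in 3D04 than in 2D04 (difference -0.73, SE 0.07, adjusted p = 3.165e-08), a smaller difference than that of any other regulator.

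DDIT3, the pro-apoptotic factor CHOP, lay at 0.62 to 1.48 (median 1.37), -1.17 to 0.49 (median 0.16) and -1.78 to -0.46 (median -1.69) in the same order of series. TRIB3, a pseudokinase that restrains ATF4, lay at 0.79 to 1.69 (median 1.50), -1.19 to 0.49 (median 0.39) and -2.25 to -0.63 (median -2.01). For both, 2D03 stood clear of 2D04, and the ranges of 2D04 and 3D04 overlapped. The 48 h control array of 3D04, at -0.46 for DDIT3 and -0.63 for TRIB3, lay above the lowest 2D04 values of -1.17 and -1.19. Over the whole course, 3D04 was 2.93-fold lower than 2D04 for DDIT3 (difference -1.55, SE 0.19, adjusted p = 8.068e-07) and 4.12-fold lower for TRIB3 (-2.04, SE 0.21, adjusted p = 7.025e-08). NUPR1, a small stress-induced chromatin protein, differed most of all members. It lay at -1.23 to -0.04 (median -0.20) in 2D03, -3.07 to -1.40 (median -1.63) in 2D04 and -4.90 to -4.09 (median -4.64) in 3D04, and no array of 1 series reached those of another. The 3D04 level was 6.68-fold below that of 2D04 (difference -2.74, SE 0.18, adjusted p = 7.251e-11). In all, 8 of 8 regulators were lower in 3D04 than in 2D04, with a median difference of -1.54.

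Among the enzymes, ASNS, which makes asparagine, lay at 1.78 to 2.45 (median 2.32) in 2D03, 0.43 to 2.00 (median 1.84) in 2D04 and -0.85 to -0.10 (median -0.26) in 3D04. The 2D series overlapped, and both stood above every 3D04 array. ASNS was 4.10-fold lower in 3D04 than in 2D04 (difference -2.04, SE 0.13, adjusted p = 3.519e-11). CHAC1, which breaks down glutathione, lay at 2.08 to 2.49 (median 2.28), 0.01 to 1.90 (median 0.62) and -1.27 to 0.55 (median -1.01). Its 2D03 arrays stood clear of both others, and over the whole course it was 3.46-fold lower in 3D04 than in 2D04 (difference -1.79, SE 0.23, adjusted p = 1.382e-06). At 48 h, however, the CHAC1 control value was higher in 3D04 (0.55) than in 2D04 (0.01). All 5 genes of this group (ASNS, CHAC1, the cysteine enzymes CTH and CBS, and the mitochondrial enzyme PCK2) and all 5 serine and one-carbon enzymes (PHGDH, PSAT1, PSPH, SHMT2, MTHFD2) were lower in 3D04 than in 2D04, with median differences of -1.91 in the former and single differences from -1.37 to -0.90 in the latter. CBS differed least, by -0.18 (adjusted p = 0.00508), and its arrays varied little anywhere, with an SD of 0.141 over all 96.

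The 5 transporters were all lower as well, with a median difference of -1.67. SLC1A5, the glutamine carrier ASCT2, lay at 0.89 to 1.62 (median 1.44) in 2D03, -0.15 to 1.06 (median 0.88) in 2D04 and -0.79 to -0.22 (median -0.33) in 3D04, so that the flat series overlapped and 3D04 stood below both. SLC1A5 had the smallest adjusted p of the members (3D04 minus 2D04 -1.23, SE 0.06, adjusted p = 7.82e-13). SLC1A4, a carrier of alanine, serine and cysteine, lay at 0.49 to 1.03 (median 1.01), -1.17 to 0.37 (median 0.04) and -2.57 to -1.91 (median -2.18), so that its series did not overlap. SLC1A4 was 4.55-fold lower in 3D04 than in 2D04 (difference -2.19, SE 0.12, adjusted p = 7.629e-12). SLC1A4 was read from 1 of 4 probe sets, which gave differences from -2.19 to -0.44, all lower in 3D04.

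The 6 genes of tRNA charging, tRNA export and translation were lower in 3D04 than in 2D04 with a smaller median difference of -0.84. WARS1, the tryptophanyl-tRNA synthetase, differed most of these, at 0.78 to 1.16 (median 1.05) in 2D03, -0.90 to 0.41 (median 0.28) in 2D04 and -1.54 to -1.17 (median -1.36) in 3D04. No array of 1 series reached another, and WARS1 was 2.81-fold lower in 3D04 than in 2D04 (difference -1.49, SE 0.09, adjusted p = 8.578e-12). The secreted stress cytokine GDF15 lay at 1.60 to 2.44 (median 2.32), -0.41 to 1.03 (median 0.65) and -1.83 to -0.92 (median -1.66), again with no overlap. VLDLR, a lipoprotein receptor, was the member not called. It lay at 1.21 to 1.62 (median 1.42), 0.77 to 1.57 (median 1.11) and 0.22 to 2.27 (median 0.43), so its ranges overlapped, and 3D04 minus 2D04 was -0.31 (SE 0.17, adjusted p = 0.185).

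**Figure D1:**
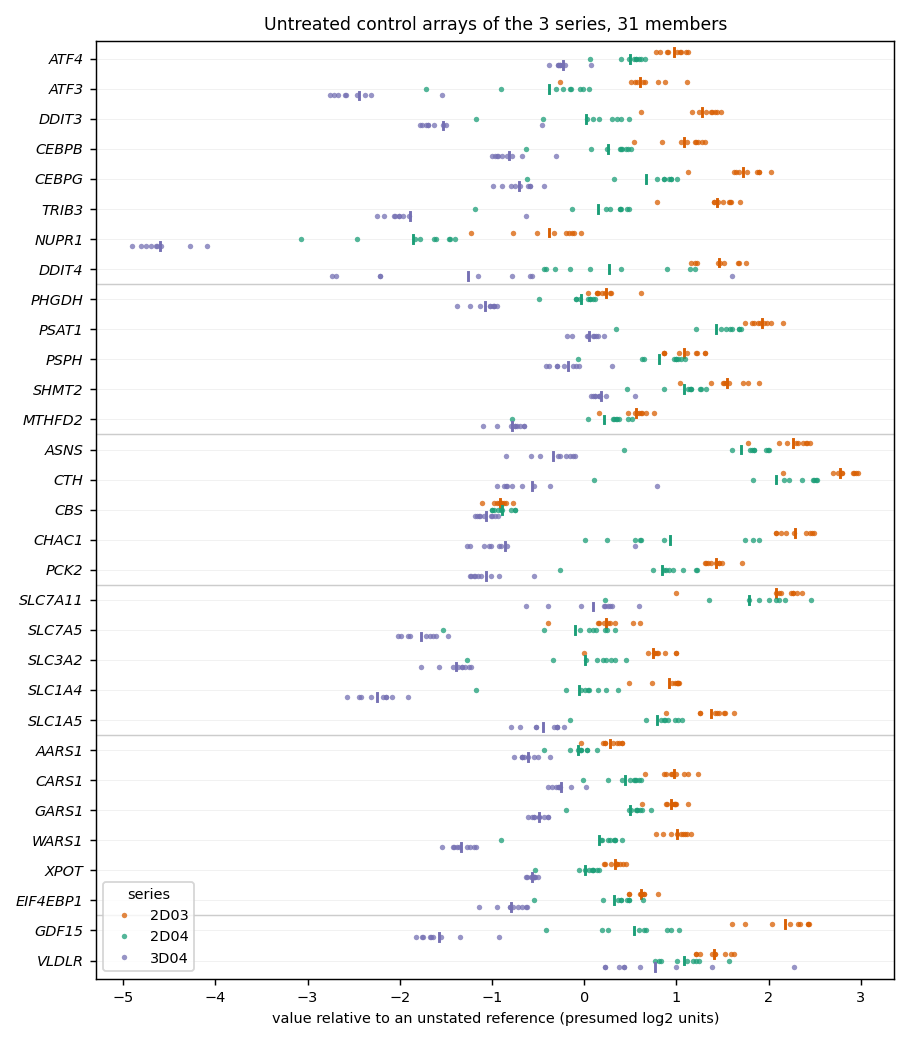
Values of the 31 members on the control arrays of 2D03, 2D04 and 3D04, grouped by role; dots are the 9 arrays of a series, ticks their mean, and the axis is the deposited scale (presumed log2, centred on an unknown reference for each probe set). For NUPR1, PSAT1, PCK2, SLC1A4, WARS1 and GDF15 the ranges of the 3 series did not overlap, while for DDIT4, CBS and VLDLR the 3D04 range overlapped both others.

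The 2 flat series differed from each other in the same way. In 2D04, 28 members were lower than in 2D03 and 0 were higher (27.1% of all genes lower, 52.5% either way), with a median of -0.56 against -0.02 over all genes. The differences of smallest adjusted p were those of GDF15 (-1.64, SE 0.15, adjusted p = 1.531e-08), WARS1 (-0.85, SE 0.09, adjusted p = 3.947e-08), SLC1A5 (-0.59, SE 0.06, adjusted p = 4.25e-08), CEBPG, a C/EBP partner of ATF4 (-1.06, SE 0.12, adjusted p = 1.286e-07), and NUPR1 (-1.47, SE 0.18, adjusted p = 5.539e-07). ATF4 itself was lower by a difference of -0.47 (SE 0.07, adjusted p = 1.024e-05), and ASNS by -0.56 (adjusted p = 0.000715). TRIB3, DDIT3 and CHAC1 were lower by larger differences of -1.30, -1.25 and -1.36. PSPH (-0.27, adjusted p = 0.0716), VLDLR (-0.32, adjusted p = 0.114) and CBS (0.03, adjusted p = 0.65) were not called.

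Between 3D04 and 2D03 all 31 members were lower in 3D04 (34.9% of all genes lower, 64.7% either way), with a median of -1.99 against -0.04. The differences reached -4.21 for NUPR1 (adjusted p = 1.195e-14) and -3.74 for GDF15 (adjusted p = 7.959e-15), and were -3.16 for SLC1A4 (adjusted p = 3.448e-15), -2.34 for WARS1 (adjusted p = 1.449e-15), -1.82 for SLC1A5 (adjusted p = 6.483e-16) and -1.21 for ATF4 (adjusted p = 2.423e-12). The 3 comparisons share control arrays, so they are not independent of one another. Counted without a model, the 9 arrays of 3D04 lay below all 9 of 2D04 for 11 members (2.40% of all genes) and below all of 2D03 for 28 (8.05%), and those of 2D04 lay below all of 2D03 for 14 (2.91%). All 3 ranges were separate in that order for 6 members, NUPR1, PSAT1, PCK2, SLC1A4, WARS1 and GDF15, and for 32 of the 11940 genes (0.268%). Series, culture and any difference in handling between series cannot be told apart here, and the size of the gap between the 2 flat series was not tested against that between 2D04 and 3D04.

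Neighbouring pathways were measured on the same arrays. Between 3D04 and 2D04, 15.7% of all genes were lower and 15.7% higher. Of 20 other genes linked to ATF4, 15 were lower and 2 higher in 3D04 than in 2D04 (median -0.44), among them the tyrosyl- and seryl-tRNA synthetases YARS1 (-0.88) and SARS1 (-0.79) and the arginine carrier SLC7A1 (-1.03). Of 14 genes listed as chaperone and folding genes of the endoplasmic reticulum, which answer to the other arms of the unfolded protein response, 8 were higher and 1 lower (median 0.29). The disulfide isomerase PDIA4 was higher by 0.82. XBP1, a transcription factor counted in this list, was lower (-0.82). Of 13 genes for eIF2 kinases, eIF2 and eIF2B subunits and eIF2 phosphatase subunits, 3 were higher and 4 lower (median -0.08), with PPP1R15A, the phosphatase subunit induced under stress, lower by -1.34. Between 2D04 and 2D03, 14 of the 20 ATF4-linked genes were lower and 3 higher, while the folding genes counted 3 higher and 6 lower (27.1% of all genes lower, 25.4% higher). In that comparison 3 of 6 leukocyte markers were also lower (median -0.13), and of 8 fibroblast markers 5 were lower and 1 higher (median -0.23). Between 3D04 and 2D03, 3 of 6 leukocyte markers were lower (median -0.15), and of the fibroblast markers 6 were lower and 1 higher (median -0.23). In that comparison 34.9% of all genes were lower and 29.8% higher. The part of these cell types in the results was not tested.

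Over time in untreated cells, no member was called before 24 h. Against the 0 h controls, limma called 0 members in the early window (0.5 and 1 h) and 0 in the middle window (4, 8 and 12 h) of either culture, with at most 1 member at an unadjusted p under 0.05 in any of these (at most 0.101% of all genes called, 0.0670% higher and 0.0335% lower, in the middle window of 2D). With the series as a block, the middle window of 2D also called 0 members, with CHAC1 and DDIT4 at an unadjusted p under 0.05. Uncalled values could still be large: DDIT4 in 3D04 lay at -2.21 and -2.21 at 0 h and at -0.78, -0.59 and -0.57 at 4, 8 and 12 h (difference 1.56, SE 0.65, adjusted p = 0.9985). CHAC1 in 2D04 lay at 0.55 and 0.25 at 0 h, at 1.83, 1.74 and 1.90 at the middle times, and at 0.60 and 0.01 at 24 h and 48 h. DDIT4 in 2D04 went from -0.16 and -0.44 to 0.90, 1.20 and 1.15. These 3 courses are examples chosen for their size, and how many of all genes move this far was not counted. In 2D03 all control arrays lay within 2.08 to 2.49 for CHAC1 and within 1.16 to 1.75 for DDIT4. In the late window (24 and 48 h) of 2D, 2 members fell and 0 rose (1.92% of all genes fell, 2.24% rose, 4.16% changed), and the median of the set was -0.47 against -0.01 over all genes. Both are amino acid carriers: SLC7A5, the large neutral amino acid transporter, by -0.80 (SE 0.20, adjusted p = 0.0123), and SLC7A11, the cystine importer, by -0.84 (SE 0.25, adjusted p = 0.0399). With the series as a block, 20 members fell (7.45% of all genes fell), including ASNS (-0.63, adjusted p = 0.00402), DDIT3 (-0.79, adjusted p = 0.000789) and TRIB3 (-0.66, adjusted p = 0.0108). Without the block the count was 0 when the 2D04 control array of 24 h or of 48 h was left out, 1 without the 0 h controls of repeat 1, 3 or 4, and 5 without the 2D03 control of 48 h. At 24 h alone it was 0, and at 48 h alone SLC7A5, SLC7A11 and PSPH were lower (3 members; 2.76% of all genes lower, 5.13% either way).

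In 3D the late window called 3 members higher and 3 lower than the 0 h controls (5.16% of all genes rose, 4.39% fell, 9.55% changed), with a median of 0.12 against -0.01. VLDLR rose by 1.43 (SE 0.28, adjusted p = 0.00512), PSPH, which completes serine synthesis, by 0.47 (SE 0.13, adjusted p = 0.0277), and DDIT4, the mTORC1 inhibitor REDD1, by 2.43 (SE 0.72, adjusted p = 0.0373). SLC7A11 fell by 0.80 on the log2 scale (SE 0.19, adjusted p = 0.0162), with SLC1A5 (-0.48, adjusted p = 0.0208) and PHGDH (-0.33, adjusted p = 0.0374). TRIB3 (0.94, adjusted p = 0.058) and CHAC1 (0.88, adjusted p = 0.134) were higher in value but not called. Leaving out either 0 h control or the 48 h control of 3D04 left 0 members called, and leaving out the 24 h control gave 14.

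The late drift differed between cultures. Drift in 3D minus drift in 2D was above 0 and called for 7 members and below 0 for 0 (1.48% of all genes higher, 2.53% either way): PSPH (1.05, adjusted p = 0.00856), TRIB3 (1.60, SE 0.36, adjusted p = 0.0228), VLDLR (1.30), CEBPB (0.97), GDF15 (1.11), DDIT3 (1.31, adjusted p = 0.0304) and DDIT4 (2.22, adjusted p = 0.0369). This count ranged from 0 to 16 as single control arrays were left out. It was 0 without the 48 h control or the second 0 h control of 3D04, 1 without the other 0 h control, 14 without its 24 h control, 16 and 11 without the 24 h controls of 2D04 and 2D03, 4 without the 48 h control of 2D04 or the 0 h controls of repeat 1 or 4, and 3 without the 48 h control of 2D03. Against 2D04 alone 3 members were higher, PSPH, TRIB3 and DDIT3 (0.452% of all genes higher, 0.921% either way). Against 2D03 alone VLDLR (1.48), GDF15 (1.22), PSPH and DDIT4 were higher and PHGDH was lower (adjusted p = 0.0250), so 4 members were higher and 1 lower (2.32% and 1.94% of all genes, 4.26% either way).

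The 24 h and 48 h arrays went opposite ways in the 2 cultures. In a comparison added after the data were seen, 48 h was set against 24 h over the control, EGF and DMSO-EGF arms. The arms served as repeats of a time, and in 3D all came from the single series 3D04. Its p-values therefore measure the spread between these arrays, not whether another culture would show the change. In 2D, 26 members were lower at 48 h and 0 higher (11.4% of all genes lower, 19.2% either way; member median -0.55, all genes -0.03). In 3D, 21 were higher at 48 h and 0 lower (10.1% of all genes higher, 30.4% either way; member median 0.31, all genes -0.03).

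TRIB3 in 3D04 lay at -1.90, -1.77 and -1.79 at 24 h in the control, EGF and DMSO-EGF arms, and at -0.63, -0.81 and -0.61 at 48 h. CHAC1 lay at -0.90, -1.08 and -0.87 at 24 h and at 0.55, 0.22 and 0.51 at 48 h. DDIT3 lay at -1.76, -1.61 and -1.49 at 24 h and at -0.46, -0.62 and -0.49 at 48 h. Every 48 h array of these 3 genes stood above every 24 h array. The rises were 1.14 for TRIB3 (SE 0.09, adjusted p = 2.026e-07), 1.38 for CHAC1 (SE 0.12, adjusted p = 3.375e-07) and 1.10 for DDIT3 (adjusted p = 2.803e-07). DDIT4 rose by 2.64 (SE 0.18, adjusted p = 3.589e-08), CTH by 1.54 (SE 0.10, adjusted p = 1.876e-08), ASNS by 0.57 (adjusted p = 9.212e-05) and ATF4 by 0.28 (SE 0.05, adjusted p = 0.000239). In 2D, ATF4 fell by 0.30 on the log2 scale (SE 0.06, adjusted p = 0.000246), ASNS by 0.76 (adjusted p = 1.843e-06), TRIB3 by 0.86 (adjusted p = 2.642e-06) and DDIT3 by 0.75, while CHAC1 stood at -0.50 (adjusted p = 0.0627). SLC7A11 had the smallest adjusted p in 2D, with a difference of -1.09 (SE 0.14, adjusted p = 5.893e-07).

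**Figure D2:**
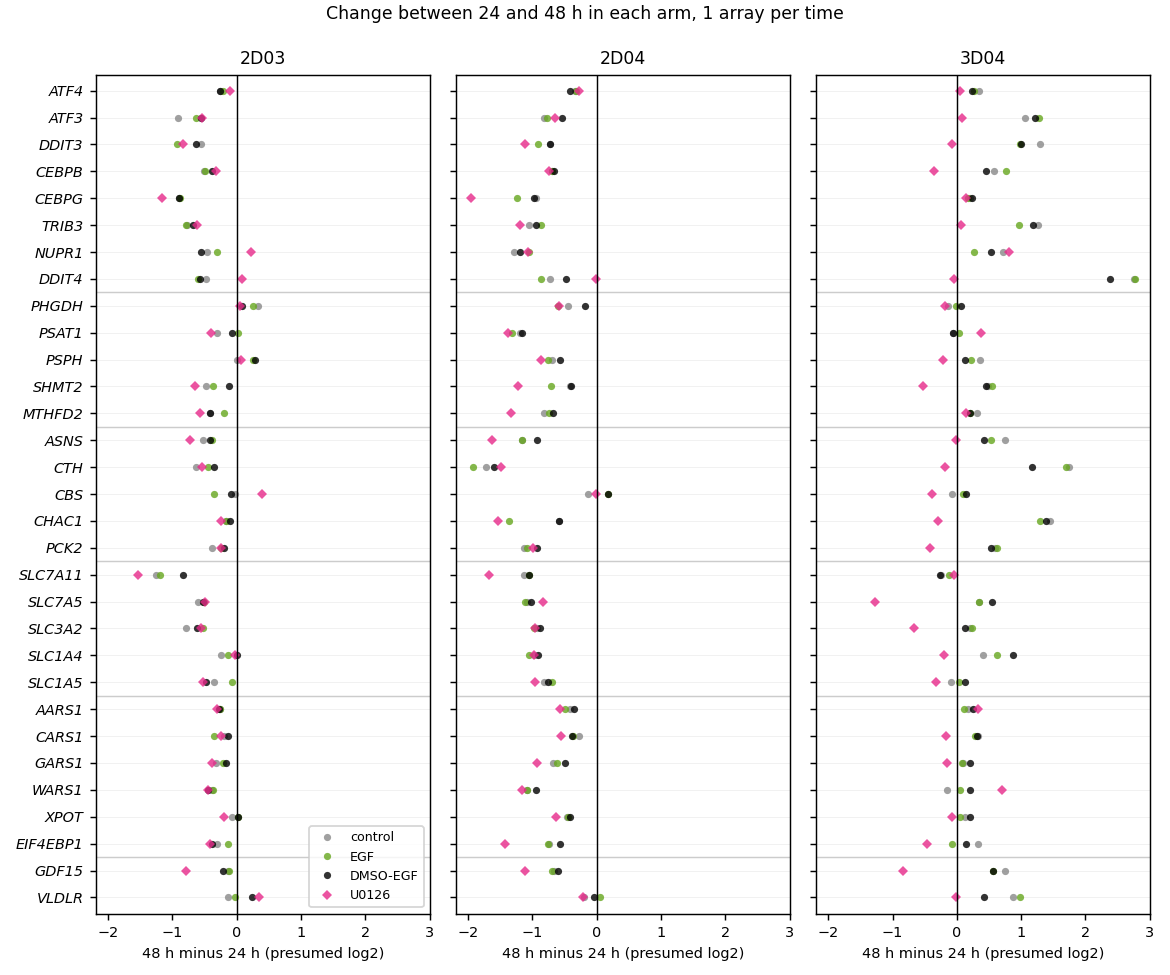
Change of the members from 24 h to 48 h, 1 panel per series, with each arm's single arrays subtracted (48 h minus 24 h, presumed log2); diamonds mark the U0126 arm. In 2D04 29 to 31 of the 31 members lay lower at 48 h in every arm, whereas in 3D04 25 to 29 lay higher in the arms without U0126 and 9 in the U0126 arm.

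The U0126 arm of 3D04 did not share the rise. There 9 members were higher and 22 lower at 48 h than at 24 h (median -0.16), against 25 higher in the control, 28 in the EGF and 29 in the DMSO-EGF arm (medians 0.35, 0.27 and 0.32). In 2D03 and 2D04 the U0126 arm moved down with the others, with 25 and 31 members lower. These are single arrays per arm, so the arms were not tested against each other on this change.

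**Figure D3:**
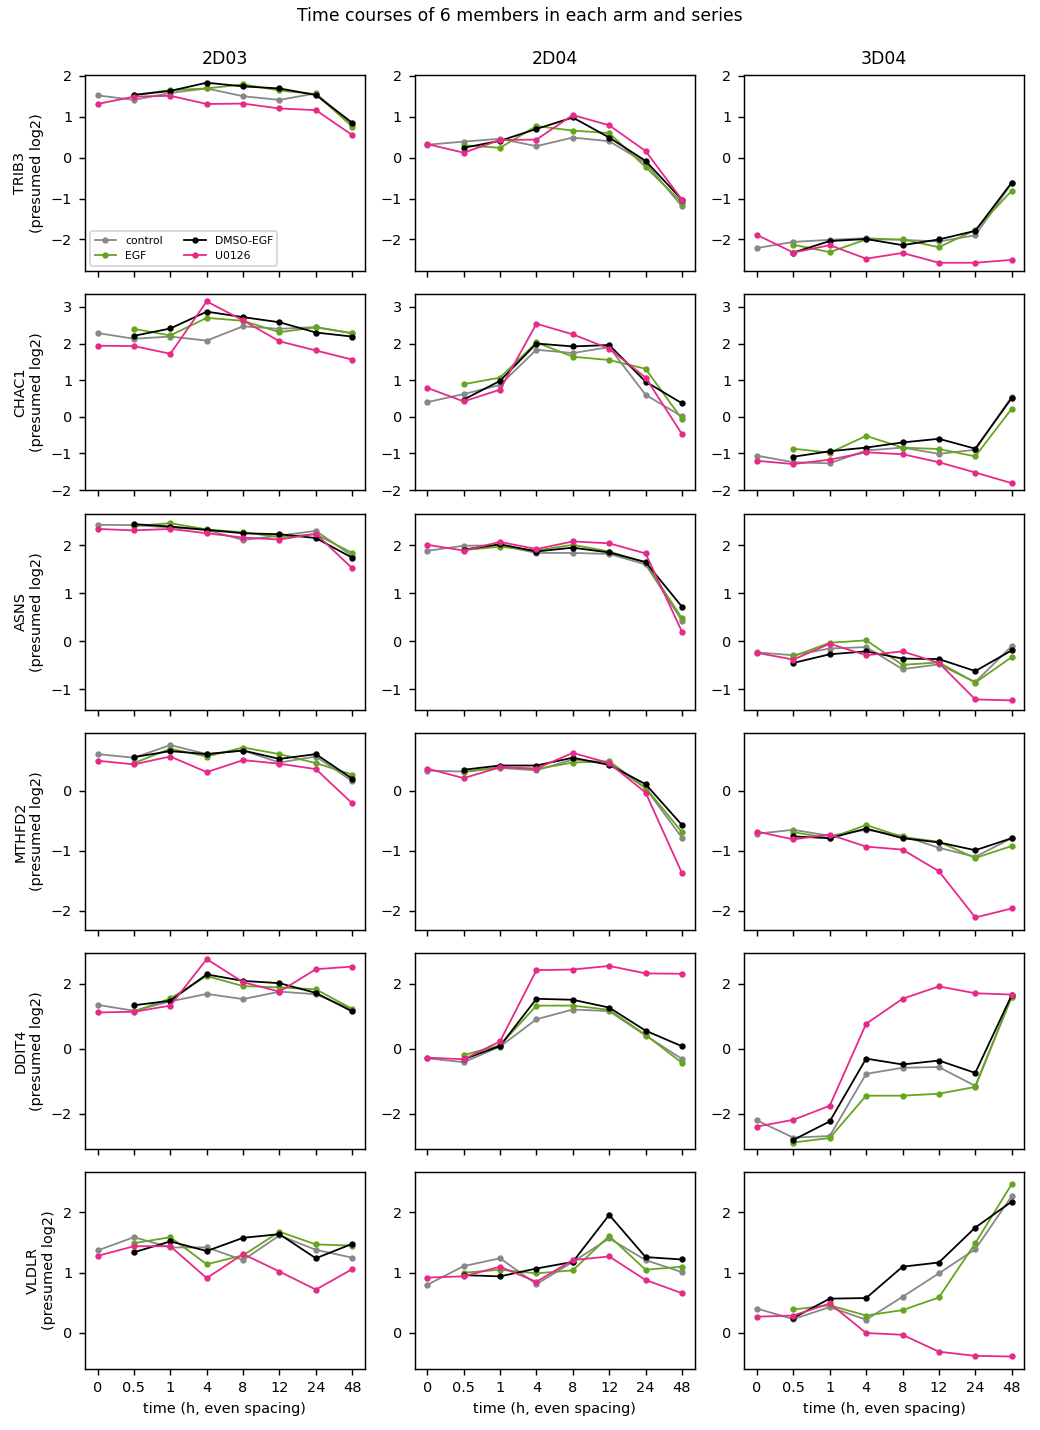
Values of TRIB3, CHAC1, ASNS, MTHFD2, DDIT4 and VLDLR on every array by time (h, evenly spaced), series and arm, on the deposited scale (presumed log2). In 3D04 the U0126 arm separates below DMSO-EGF late for TRIB3, CHAC1, ASNS, MTHFD2 and VLDLR, and DDIT4 is above it from 0.5 h to 24 h and level with it at 48 h, at 1.66 against 1.64.

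U0126 was compared with DMSO-EGF to see which members differed with the inhibitor in the presence of EGF. With 1 inhibitor at 1 dose, dependence on MEK/ERK signalling itself was not tested. In 2D few members were called in the fit without the series as a block, where level differences between the 2 flat series enter the spread. limma called 0 members in the early window (0 at an unadjusted p under 0.05; 0.0168% of all genes called), 0 in the middle window (2 at an unadjusted p under 0.05; 7.25% of all genes, 2.14% higher and 5.12% lower) and 1 in the late window (3 at an unadjusted p under 0.05; 12.4% of all genes, 6.47% higher and 5.94% lower). The member medians were -0.03, -0.02 and -0.11. In the middle window the smallest adjusted p values belonged to VLDLR (-0.37, adjusted p = 0.144) and SLC1A5 (-0.51, adjusted p = 0.209).

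The late call was EIF4EBP1, the translation repressor 4E-BP1. It lay at 0.80 and 0.41 (24 h and 48 h) with DMSO-EGF and at 0.12 and -0.30 with U0126 in 2D03, and at 0.15 and -0.42 against -0.14 and -1.56 in 2D04. It was lower with U0126 at each time of each series (difference -0.70, SE 0.22, adjusted p = 0.0303), though the arms overlapped across series. DDIT4 lay at 1.71 and 1.14 with DMSO-EGF and 2.44 and 2.52 with U0126 in 2D03, and at 0.55 and 0.07 against 2.31 and 2.30 in 2D04. All 4 U0126 arrays stood above all 4 DMSO-EGF arrays, and the difference of 1.53 (SE 0.54) had an adjusted p of 0.0579. VLDLR (-0.47, SE 0.18, adjusted p = 0.0920), MTHFD2 (-0.40, adjusted p = 0.232) and SLC1A5 (-0.53, adjusted p = 0.271) came next in the late window. ATF4 (0.01, SE 0.22, adjusted p = 0.991), DDIT3 (0.32, adjusted p = 0.874), TRIB3 (-0.11, adjusted p = 0.966), ASNS (-0.12, adjusted p = 0.911) and CHAC1 (-0.46, SE 0.63, adjusted p = 0.797) were not called.

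With the series as a block, 4 members were called in the middle and 6 in the late window (19.4% and 24.7% of all genes). In the middle window SLC1A5 (-0.51, SE 0.13, adjusted p = 0.00374), VLDLR (-0.37, adjusted p = 0.00911) and GDF15 (-0.53, adjusted p = 0.0225) were called lower and ATF3 higher (0.37, adjusted p = 0.0479). SLC1A5 differed at 4, 8 and 12 h by -0.17, -1.24 and -1.07 in 2D03 and by -0.16, -0.22 and -0.21 in 2D04, so its large differences were those of the pair of arrays with the low 5′ actin signal. GDF15 differed by -1.29, -1.14 and -0.77 in 2D03 and by -0.53, 0.02 and 0.53 in 2D04. In an alternative added after the data were seen, that pair was left out of the blocked fit. Then 2 members were called, both higher (3.33% of all genes higher, 8.60% either way): DDIT4 (1.10, SE 0.21, adjusted p = 0.000426) and ATF3 (0.52, SE 0.15, adjusted p = 0.0279). SLC1A5 (-0.17, adjusted p = 0.392), VLDLR (-0.25, adjusted p = 0.214) and GDF15 (-0.09, adjusted p = 0.808) were not called there.

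In the late window of 2D, again with the block, DDIT4 (1.53, SE 0.29, adjusted p = 6.446e-05) and NUPR1 (0.98, SE 0.24, adjusted p = 0.00168) rose, and EIF4EBP1 (-0.70, SE 0.18, adjusted p = 0.00288), VLDLR (-0.47, adjusted p = 0.00437), SLC1A5 (-0.53, adjusted p = 0.00955) and MTHFD2 (-0.40, adjusted p = 0.0288) fell. Without the block, the late count was 0 when the 2D03 DMSO-EGF array of 48 h or the 2D04 U0126 array of 24 h or of 48 h was left out, and 2 without the 2D03 U0126 array of 48 h.

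The 2 flat series answered differently in the middle window. U0126 minus DMSO-EGF was higher in 2D04 than in 2D03 for 8 members and lower for 0 (8.22% of all genes higher, 2.19% lower, 10.4% either way): ATF4 (0.44), PSAT1 (0.72), SLC3A2 (0.77), GDF15 (1.07), SLC1A5 (0.63), NUPR1 (0.67), CEBPB (0.45) and TRIB3 (0.51). The count was 1 without the 8 h and 12 h U0126 arrays of 2D03, the pair with the low 5′ actin signal, 4 without either of them, and 5 without the 2D03 DMSO-EGF array of 12 h, the 2D04 DMSO-EGF array of 12 h or the 2D04 U0126 array of 8 h or 12 h. In the late window NUPR1 alone differed (1.12, adjusted p = 0.0362; 0.427% of all genes). That count was 0 without the 24 h DMSO-EGF array of either series, the 24 h U0126 array of 2D03 or the 48 h DMSO-EGF or U0126 array of 2D04, and 3 without the 24 h U0126 array of 2D04.

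In 3D, U0126 moved the set in both directions by the middle window and mostly downward in the late one. The early window called 0 members (1 at an unadjusted p under 0.05; 0.310% of all genes). In the middle window 5 members were higher and 5 lower (7.18% and 8.14% of all genes), with a median of -0.00 against 0.00. In the late window 4 were higher and 19 lower (20.7% and 18.1% of all genes, 38.9% either way), with a median of -0.48 against 0.03.

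The members higher in the middle window were DDIT4, 3 amino acid carriers and PHGDH, the first enzyme of serine synthesis. DDIT4 lay at -0.31, -0.49 and -0.37 with DMSO-EGF at 4, 8 and 12 h and at 0.76, 1.53 and 1.91 with U0126, without overlap (difference 1.79, SE 0.36, adjusted p = 0.00192). SLC7A5 lay at -1.38, -1.56 and -1.46 against -0.62, -0.27 and -0.61 with U0126 (0.97, SE 0.23, adjusted p = 0.00698). Its partner chain SLC3A2 lay at -1.16, -1.25 and -1.57 against -0.83, -0.52 and -1.13 (0.50, SE 0.13, adjusted p = 0.0143). The 2 chains of this carrier were thus both above DMSO-EGF at every middle time, without overlap. At 48 h both were below it, at -2.52 against -1.69 for SLC7A5 and -2.32 against -1.55 for SLC3A2, and neither was called in the late window. SLC1A4 was higher in both windows (0.67, SE 0.16, adjusted p = 0.0063, and 0.54, SE 0.19, adjusted p = 0.0327), at -1.82, -1.47, -1.47, -1.15 and -1.35 with U0126 from 4 h to 48 h against -2.33, -2.44, -1.99, -2.22 and -1.35. In the middle window the probe set of highest mean for SLC1A4 gave -0.10 (adjusted p = 0.529).

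Members that fell in the middle window fell again in the late one. VLDLR lay at 0.58, 1.10 and 1.17 with DMSO-EGF at 4, 8 and 12 h and at 0.00, -0.03 and -0.31 with U0126, and then at 1.75 and 2.18 against -0.38 and -0.39 at 24 h and 48 h. Its values were higher late than at 4 h without the inhibitor and not with it, and the arms were separate in both windows (middle -1.06, SE 0.17, adjusted p = 0.000242; late -2.35, SE 0.21, adjusted p = 5.011e-08). CEBPG lay at -0.62, -0.69, -0.85, -1.0 and -0.76 with DMSO-EGF from 4 h to 48 h and at -0.80, -1.19, -1.86, -2.34 and -2.19 with U0126. CEBPG fell in the middle (-0.56, SE 0.11, adjusted p = 0.00215) and late window (-1.39, SE 0.14, adjusted p = 2.67e-07). SLC1A5 went from -0.24, -0.44 and -0.52 to -0.59, -0.80 and -0.96 in the middle window and from -0.59 and -0.47 to -1.08 and -1.41 in the late one (-0.38, SE 0.07, adjusted p = 0.000809; -0.72, late). EIF4EBP1 stood at -0.99 and -0.84 late with DMSO-EGF and at -2.09 and -2.55 with U0126, without overlap (-1.41, SE 0.15, adjusted p = 6.43e-07).

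Late in 3D all 5 serine and one-carbon enzymes fell. MTHFD2, the mitochondrial folate enzyme, had the smallest adjusted p of the members. It lay at -0.99 and -0.79 with DMSO-EGF at 24 h and 48 h and at -2.11 and -1.96 with U0126, a 2.21-fold lower level (difference -1.15, SE 0.08, adjusted p = 1.926e-09). SHMT2, which turns serine into glycine in mitochondria, lay at 0.07 and 0.52 against -0.95 and -1.47. Both pairs of arms were separate, and SHMT2 fell by 1.50 on the log2 scale, with its 3 probe sets between -1.50 and -1.12. PSAT1, PHGDH and PSPH fell by 0.66, 0.54 and 0.38.

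Of the 6 translation genes 5 fell. GARS1, the glycyl-tRNA synthetase, lay at -0.46 and -0.26 with DMSO-EGF and -1.25 and -1.41 with U0126 (-0.97, SE 0.09, adjusted p = 5.632e-08). XPOT, which exports tRNA from the nucleus, AARS1 and CARS1 fell by 0.48, 0.28 and 0.34. WARS1 went the other way, from -1.66 and -1.46 to -1.32 and -0.62, and rose by 0.59 (SE 0.14, adjusted p = 0.00174).

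The stress regulators and the asparagine and glutathione enzymes divided. TRIB3 lay at -1.79 and -0.61 with DMSO-EGF and -2.57 and -2.50 with U0126, and CHAC1 at -0.87 and 0.51 against -1.52 and -1.81. ASNS lay at -0.62 and -0.19 against -1.21 and -1.23. In each the U0126 arrays lay below both DMSO-EGF arrays, by more at 48 h than at 24 h. TRIB3 fell by 1.33 on the log2 scale (SE 0.19, adjusted p = 1.941e-05), CHAC1 by 1.49 (SE 0.27, adjusted p = 0.000186), ASNS by 0.82 (SE 0.14, adjusted p = 0.000113) and ATF3 by 0.87. For ATF3 the difference was -0.30 at 24 h and -1.44 at 48 h. ATF4 mRNA lay at -0.18 and 0.05 against -0.16 and -0.11 and was not called (-0.07, SE 0.07, adjusted p = 0.483), nor was DDIT3 (-0.41, adjusted p = 0.164), which lay at -1.49 and -0.49 against -1.36 and -1.43.

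NUPR1 and DDIT4 were higher late with U0126. NUPR1 went from -4.98 and -4.45 to -3.82 and -3.01 (1.30, SE 0.31, adjusted p = 0.00232). DDIT4 was higher by 1.24 (SE 0.44, adjusted p = 0.0314), but that rested on 24 h, at 1.70 against -0.75, since all 4 arms had reached 1.59 to 1.66 at 48 h; without the 24 h U0126 array the difference was -0.10 (adjusted p = 0.815). GDF15 fell by 0.81 on the log2 scale (adjusted p = 0.0162), with differences of -0.11 at 24 h and -1.52 at 48 h. SLC7A11 fell by 0.61, and the other probe sets of SLC7A11 gave -0.04 and -0.06. The other probe set of GDF15 barely varied (SD 0.0930 over all arrays) and gave -0.065 here and -0.047 between the control arrays of 3D04 and 2D04. Over the set, 19 members lay below DMSO-EGF at 24 h (median -0.30) and 27 at 48 h (median -0.77). The 24 h and 48 h DMSO-EGF arrays also enter the change from 24 h to 48 h above, so the 2 results are not independent. The middle count of 10 was 6 without the 8 h DMSO-EGF or the 8 h U0126 array.

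**Figure D4:**
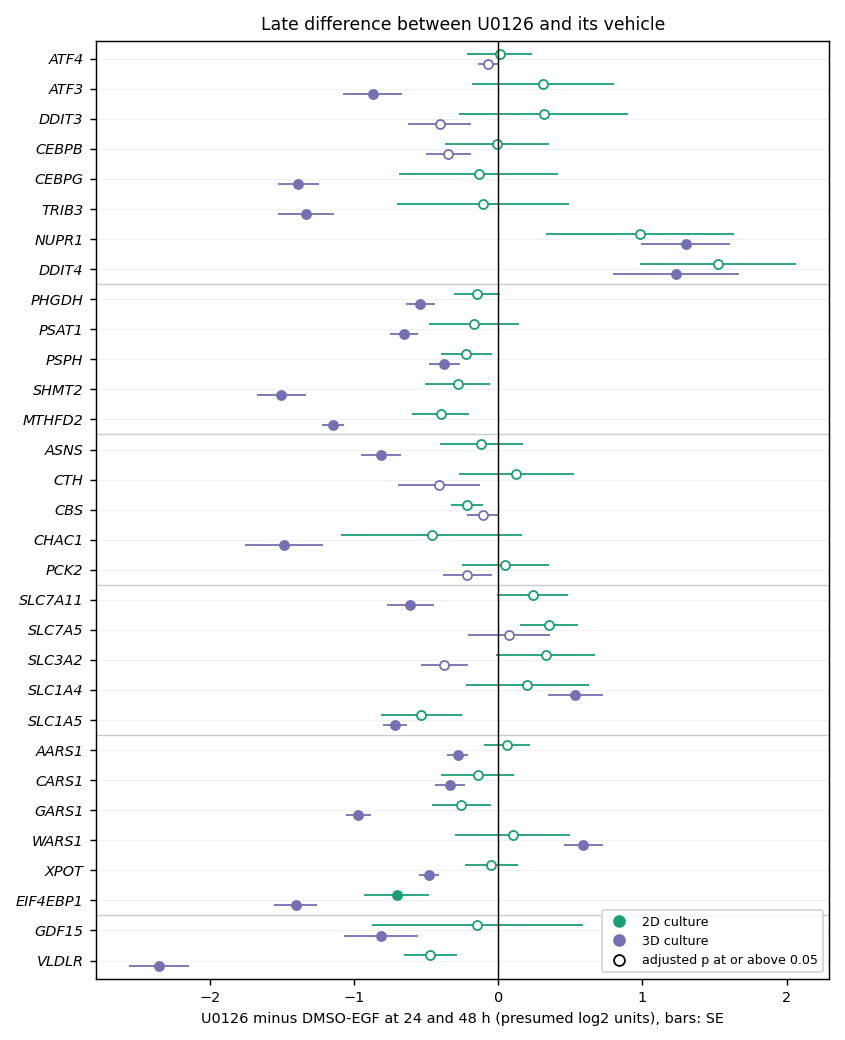
Late U0126 minus DMSO-EGF (24 h and 48 h, presumed log2) for the 31 members by role, 2D in green and 3D in purple; bars are standard errors and filled symbols have an adjusted p under 0.05. In 3D 19 members lie below 0 and 4 above 0 as filled symbols. In 2D, fitted without the series as a block, EIF4EBP1 is the filled one. With the block 6 members were called late in 2D, so the number of filled symbols does not compare the cultures.

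The difference between cultures was tested directly. In the late window the effect of U0126 was lower in 3D than in 2D for 15 members and higher for 1, WARS1 (0.49), where 5.85% of all genes were lower, 4.28% higher and 10.1% differed either way. The 5 of smallest adjusted p were VLDLR (-1.88, SE 0.20, adjusted p = 1.448e-09), CEBPG (-1.25), GARS1 (-0.71), MTHFD2 (-0.74) and SHMT2 (-1.23). TRIB3 (-1.23, SE 0.21, adjusted p = 2.999e-05), ASNS (-0.70, adjusted p = 0.000421), CHAC1 (-1.02) and DDIT3 (-0.72) were also lower in 3D, and ATF4 was not called (-0.08, adjusted p = 0.819). The count was 8 without the 48 h U0126 array of 3D04 and 9 without its 48 h DMSO-EGF array.

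In the middle window 5 members differed between cultures (2.27% of all genes, 1.37% higher and 0.896% lower): DDIT4 (1.25), SLC7A5 (0.73) and SLC1A4 (0.58) were higher in 3D, and VLDLR (-0.69) and CEBPG (-0.66) lower. That count was 0 without the 12 h U0126 array of 3D04, 1 without its 8 h DMSO-EGF array and 2 without its 8 h U0126 or 12 h DMSO-EGF array. It was 3 without the 4 h DMSO-EGF array of any series, or without the 8 h or 12 h DMSO-EGF or U0126 array of 2D03, and 2 without the pair of 2D03 arrays with the low 5′ actin signal. In the early window limma called 0 members (1 at an unadjusted p under 0.05; 0.0670% of all genes).

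Related genes were measured in the same late window, in which 18.1% of all genes fell and 20.7% rose in 3D. In 3D, 9 of the 20 other ATF4-linked genes fell and 4 rose (median -0.28), with SLC7A1 at -1.23 and the oxidoreductase ERO1A at -1.66. Of the list of 14 folding genes of the endoplasmic reticulum 10 fell and 3 rose (median -0.43), with the secreted factor MANF at -1.32 and the transcription factor XBP1 at 0.95. Of 13 genes of eIF2 control 6 fell and 2 rose, with EIF2S1, the alpha subunit that stress kinases phosphorylate, at -1.01 and PPP1R15A at -0.94. In 2D the fit without the series as a block called 5.94% of all genes lower and 6.47% higher. There 4 of the 13 eIF2 genes fell, EIF2S1 among them (-0.56). Of the ATF4-linked genes 1 fell (SLC7A1, -0.69) and 1 rose (KLHL24, 0.85), and limma called 0 of the 14 folding genes. In this fit, level differences between the flat series enter the spread, and counts with the block are not given for these lists. The counts therefore do not compare the cultures.

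The remaining arms gave no call. EGF against control, and DMSO-EGF against EGF, each in the early, middle and late window of 2D, and U0126 against DMSO at 0 h in 2D, all gave 0 members by limma, with 0 members at an unadjusted p under 0.05 and 0 of the 11940 genes called. With the series as a block these 7 comparisons again called 0 members and 0 genes, with 2 members (DDIT3 and GDF15) at an unadjusted p under 0.05 for EGF in the middle window and 0 in the other 6. A p that misses the threshold does not show that the arms were alike.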

How the data were processed

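Expression in 96 samples of MDA-MB-231 cells was taken from the deposited value table. RMA is named in the submitters' processing notes and gives log2 signals, so the deposited values are presumed log2; base and centring are not stated in the sources used here, and array medians lay between -0.06 and 0.03. Single values ran from -5 to 5.7, which places every probe set relative to a reference that is not known. The number of arrays limits the precision, and no filter on low values was used.

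Of 22930 probe sets, 524 were array controls, 19415 had 1 gene symbol, 125 with several symbols were not used, and 3292 had no annotation entry (2866 of these no array control). Where several probe sets named 1 gene (4507 of 11940 genes), the probe set of largest SD over all arrays stood for it, a choice that leans towards larger changes. Older symbols were updated for 4 tRNA synthetases.

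Tests used limma 3.58.1 under R 4.3.3, with Benjamini-Hochberg adjustment over all genes and a threshold of 0.05. For 2D, 31 group means were fitted, leaving 33 residual degrees of freedom. In 3D the times of a window served as repeats (12 residual degrees of freedom, 17 with 0 h). Cultures, series and control series were compared in models with terms for series and time (45, 36 and 17 residual degrees of freedom). In 2D the repeat numbers in the labels follow the series 2D03 and 2D04, and in 30 groups the deviations of same-numbered arrays correlated in all 435 pairs of groups (r from 0.228 to 0.818, median 0.63), so the numbers pair the arrays. The fits were tested on simulated data with known changes.

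The members and lists were chosen with earlier results of these data known, as was the rule for named genes: ATF4, DDIT3, ASNS, TRIB3, CHAC1 and the 5 members of smallest adjusted p in a comparison in full, the others by counts and ranges. Alternatives were a replicate block, quantile normalization, array weights, a variance filter, the probe set of highest mean, single times, single series and leaving out each array. Promoter windows are RefSeq, build GRCh38.p14, matched by symbol.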

Additional observations from a re-analysis of the deposited data

Results flagged for a closer look

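In the middle window (4, 8 and 12 h), the effect of U0126 against DMSO-EGF differed between 3D and 2D in a test of the difference itself. The effect in 3D minus that in 2D was -0.69 for VLDLR, -0.66 for CEBPG, 0.58 for SLC1A4, 0.73 for SLC7A5 and 1.25 for DDIT4.

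In the late window (24 and 48 h) the same test gave -1.88 for VLDLR, -1.25 for CEBPG, -0.71 for GARS1, -0.74 for MTHFD2, -1.23 for SHMT2, -1.23 for TRIB3, -1.18 for ATF3 and -0.70 for ASNS. It also gave -0.43 for XPOT, -0.85 for SLC7A11, -0.72 for DDIT3, -0.70 for EIF4EBP1, -1.02 for CHAC1, -0.34 for AARS1 and -0.70 for SLC3A2, and 0.49 for WARS1.

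Between the flat series, the middle effect of U0126 in 2D04 minus that in 2D03 was 0.44 for ATF4, 0.72 for PSAT1, 0.77 for SLC3A2, 1.07 for GDF15, 0.63 for SLC1A5, 0.67 for NUPR1, 0.45 for CEBPB and 0.51 for TRIB3. The late difference of NUPR1 was 1.12.

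The late drift of the control arrays in 3D minus that in 2D was 1.05 for PSPH, 1.60 for TRIB3, 1.30 for VLDLR, 0.97 for CEBPB, 1.11 for GDF15, 1.31 for DDIT3 and 2.22 for DDIT4. No member had a control array at 0 h in 2D that stood apart from the other 3 by Dixon's criterion for 4 arrays; other groups were too small or too large for it.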

How the results depend on the processing

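With the replicate block the members called in 2D numbered 4 for U0126 in the middle window, 6 in the late window and 20 for late control drift, against 0, 1 and 2 without it. Without the 8 h and 12 h U0126 arrays of 2D03 the blocked middle count was 2. Late U0126 calls in 2D numbered 2 without the 40% of genes of lowest SD and 0 with array weights, at 24 h alone or at 48 h alone. Late 2D drift gave 1 call after quantile normalization, 0 at 24 h alone and 3 at 48 h alone. U0126 in 2D03 alone gave 11 calls in the middle window, 0 higher and 11 lower (32.6% of all genes), and 10 late, 3 higher and 7 lower (21.4%). In 2D04 alone it gave 3 in the middle window, all higher (7.11%), and 12 late, 7 higher and 5 lower (23.7%). The middle difference between cultures gave 2 calls without the 8 h and 12 h U0126 arrays of 2D03, 1 against 2D04 alone and 12 against 2D03 alone. The middle difference of 2D04 and 2D03 gave 1 call without that pair, and the late one 2 after quantile normalization and 0 with array weights. The drift difference gave 3 calls against 2D04 alone, and 4 higher and 1 lower against 2D03 alone.

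Leaving out single arrays (in the control series comparisons, each time in turn) gave these lowest and highest counts: U0126 in 2D, 0 early, 0 middle and 0 to 2 late; in 3D, 0 early, 6 to 9 middle and 17 to 26 late; 3D minus 2D, 0 early, 0 to 6 middle and 8 to 22 late; 2D04 minus 2D03, 4 to 9 middle and 0 to 3 late; late drift, 0 to 5 in 2D, 0 to 14 in 3D and 0 to 16 for their difference. Control series counts were 30 to 31, 30 to 31 and 25 to 28 (3D04 with 2D04, 3D04 with 2D03, 2D04 with 2D03), and 48 h minus 24 h gave 26 to 28 in 2D and 18 to 22 in 3D.

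Of 2605 alternatives for 178 called values of single members, 2486 kept direction and call, 117 lost the call and 2 reversed: SLC1A4 with U0126 in the middle window of 3D (-0.10 with the probe set of highest mean) and DDIT4 in the late window of 3D (-0.10 without the 24 h U0126 array, the lowest, to 2.57 without the 48 h U0126 array, the highest). The cause of these changes was not tested. The number of arrays limits the precision, and in 3D each arm and time is 1 array.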
